A study of Mus musculus with 4 samples.

Results

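The interferon regulatory factors (IRFs) are transcription factors that share an N-terminal DNA-binding domain. Their genes were read by symbol from each deposited table, and 8 were taken as members (Irf1, Irf2, Irf3, Irf4, Irf5, Irf7, Irf8 and Irf9), of 24411 gene symbols in all. The cells were B220-positive B cells, sorted by flow cytometry from the marrow of tibia and femur of mice. RNA sequencing gave 4 libraries in 2 groups of 2, wildtype and Arid5b overexpression. They are called WT1, WT2, OE1 and OE2 here, the last pair by label only. How Arid5b was raised, and the strain, age and number of mice behind a library, were not given in the sources used here. Nothing in the labels says that the 2 libraries of a group came from separate mice, so every p-value below measures the spread between these libraries. In bulk RNA, fewer cells of a type and less RNA per cell cannot be told apart.

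Arid5b itself, which encodes a chromatin factor of the ARID family, had 2993 reads in WT1, 2465 in WT2, 58127 in OE1 and 2770 in OE2. The label of OE2 is thus not borne out by its Arid5b level, and each overexpression-labelled library was also compared with wildtype alone. Libraries held 14196665 to 20356404 reads. OE1 stood apart, with 7721 of 12617 tested genes past the threshold against wildtype, whereas OE2 had 209. Of 8 B lineage markers, 0 were without reads in any library, and they summed to 4808 and 5355 CPM (reads scaled to the total of the library) in wildtype, 3288 in OE1 and 5281 in OE2. In OE1 3 of the 8 rose (led by Cd79b and Pax5) and 5 fell, led by Blk (-2.95) and Ptprc (-2.47), whose protein carries B220. Of all genes tested, 26.8% rose and 34.4% fell in OE1. Without Ptprc, at 371.9 CPM in OE1 and 1772 to 1958 elsewhere, the sums were 3036, 3397, 2916 and 3401 CPM in WT1, WT2, OE1 and OE2. WT1 differed from the other 3 libraries in sex-linked genes, with 24 reads of Xist against 68540 to 132008. It had 3260 reads of the Y-linked Ddx3y, against 0 to 1 in the others. By these genes WT1 read as male and WT2, OE1 and OE2 as female. WT1 and WT2 thus came from different mice, and sex is mixed within wildtype only.

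IRF proteins bind repeats of GAAA in DNA. IRF4 and IRF8 bind weakly alone and pair with the ETS proteins PU.1 and Spi-B at composite sites. In the marrow they act redundantly at the pre-B stage, where they help end proliferation driven by the pre-B receptor and interleukin 7 and allow light chain gene recombination. IRF3, IRF5 and IRF7 are switched on by phosphorylation downstream of sensors of microbial nucleic acid. IRF9 joins STAT proteins in the complex ISGF3, which answers type I interferon. IRF1 activates and IRF2 mostly represses from shared sites.

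In wildtype B cells Irf4 was the most abundant member per length. Scaled to exon length, Irf4 stood at 167.8 and 203.6 CPM per kilobase in WT1 and WT2, which ranked it 137 and 124 among 12117 tested genes with a length. Irf8 came next at 38.67 and 36.37 CPM per kilobase. Irf5, at 33.45 and 28.27, lay just below Irf8 without overlap. Irf1, at 31.68 and 25.03, overlapped Irf5, so those neighbours did not differ beyond their spread. Irf9 followed at 8.331 and 8.527 CPM per kilobase, above the 3 lowest members. Irf3 at 4.903 and 6.753, Irf2 at 4.248 and 6.438 and Irf7 at 4.141 and 5.466 overlapped one another. Exon lengths cover all annotated isoforms, which may be longer than the transcripts these cells make. WT1 and WT2 both had 0 reads of Igll1 and Vpreb1, listed below as pre-B genes. Fcer2a, listed below as a later B cell gene, had 6116 reads in WT1 and 4483 in WT2. The wildtype levels above are thus not those of cells rich in these pre-B transcripts.

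**Figure D1:**
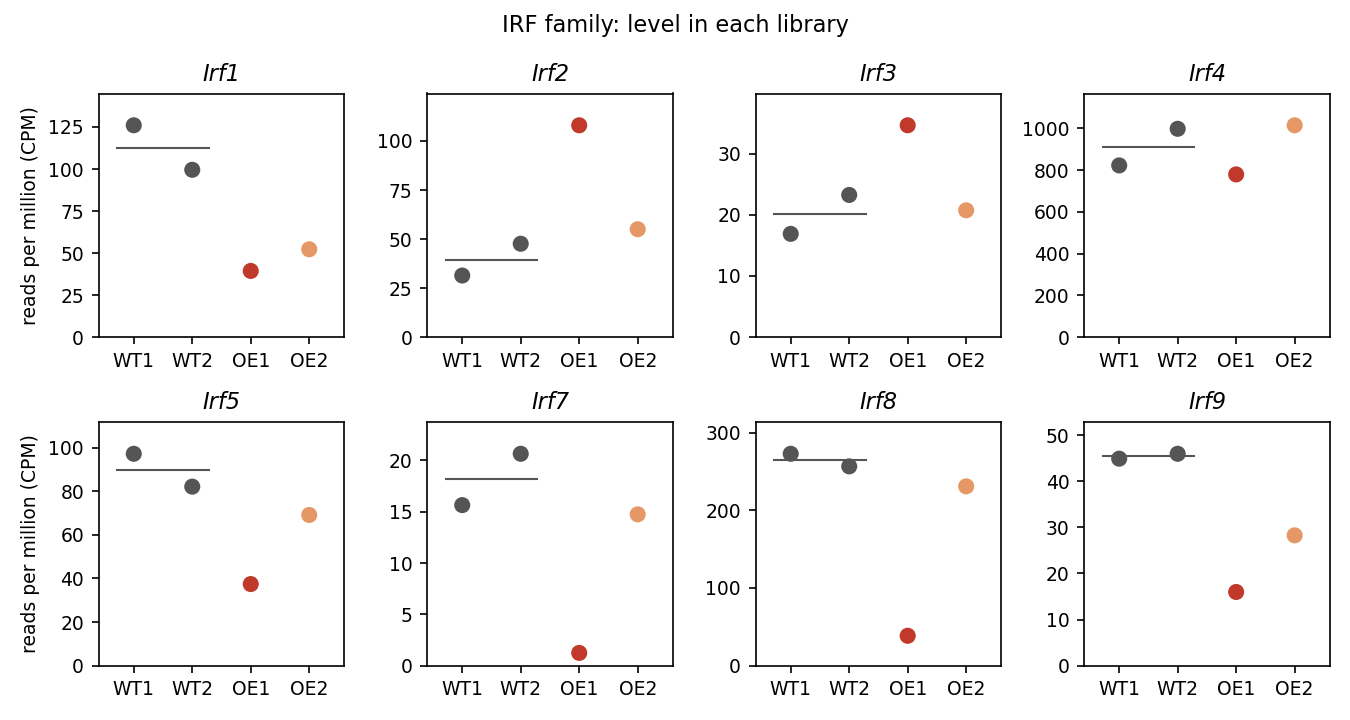
Level of each member in CPM (linear axis from 0) in the 4 libraries, 1 point per library; the line is the wildtype mean. Irf8 and Irf7 are far lower in OE1 (38.48 and 1.243 CPM) than in the other libraries. In OE2 both are also below the wildtype libraries (230.9 and 14.74 CPM), by much less. Irf2 is highest in OE1 (108 CPM), and Irf1 is below both wildtype libraries in OE1 and OE2 (39.39 and 52.27 CPM).

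Irf4 kept a high level in every library, while Irf8 was low in OE1. Irf4 (ENSMUSG00000021356.10, chr13:30749226-30766976, GRCm38, plus strand) had 16577 and 14171 reads in WT1 and WT2, 11916 in OE1 and 20655 in OE2. In CPM these were 822.8, 998.2, 779.7 and 1015. OE1 was lowest and OE2 highest, and the groups overlapped. Against wildtype, Irf4 differed in OE1 by -0.36 log2 units (SE 0.128, 95% CI -0.64 to -0.09, limma adjusted p = 0.0248), 0.774 times the wildtype normalised reads. That call was lost with library totals (-0.22), totals without the ribosomal precursor Rn45s (-0.16), recomputed size factors (-0.26) and no filter on low reads. Relative to the median of all genes, which was -0.15 in OE1 and moved to 0.02 with totals without Rn45s, the Irf4 difference was -0.21. In OE2 Irf4 differed by 0.18 (95% CI -0.11 to 0.47, limma adjusted p = 0.56).

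Irf8 (ENSMUSG00000041515.10, chr8:120736358-120756694, GRCm38, plus strand) had 5496 and 3643 reads in WT1 and WT2, 588 in OE1 and 4701 in OE2. In CPM these were 272.8, 256.6, 38.48 and 230.9. OE1 was far below the other 3 libraries, which lay close together, and both overexpression-labelled libraries were below both wildtype ones. Irf8 fell by 2.87 log2 units in OE1 (SE 0.14, limma adjusted p = 1.6e-09), to 0.131 times the wildtype normalised reads. Of the 8 members it had the smallest adjusted p in this comparison, and its call held in all 8 alternatives that gave a test. In OE2 it differed by -0.18 (95% CI -0.47 to 0.11, limma adjusted p = 0.547). OE1 and OE2 themselves differed in Irf8 by -2.69 (SE 0.158, limma adjusted p = 2.56e-08) and in Irf4 by -0.54 (SE 0.151, limma adjusted p = 0.00924); the Irf4 difference was lost with library totals (-0.38), totals without Rn45s (-0.33) and no filter.

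The balance of the pair therefore differed between libraries in a way that no scaling of a library can alter. Irf4 had 3.02 and 3.89 reads for each read of Irf8 in WT1 and WT2, 20.3 in OE1 and 4.39 in OE2. Per exon length the ratio was 4.34 and 5.6 in wildtype, 29.2 in OE1 and 6.32 in OE2. OE1 was several-fold above the other 3 libraries, which spanned a narrow range. In OE1 Irf8 ranked 4906 of 12117 genes by CPM per kilobase, against 660, 764 and 809 in WT1, WT2 and OE2, while Irf4 ranked 124 to 149 in all 4 libraries.

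The members' promoters were searched for the sites through which IRFs and interferon-activated STATs act, because several members themselves respond to these factors. RefSeq promoter windows (GRCm38.p6) matched all 8 members, with 11 windows in all, and the 250 bases before each start were searched on both strands. The motifs were the core of the interferon-stimulated response element, GAAANNGAAA, the ETS-IRF composite GGAANNGAAA, the IRF-ETS composite GAAANNGGAA and the STAT element GAS, TTCNNNGAA. The first 3 share GAAA or GGAA steps and can overlap at shifted positions. They occurred in 2.98%, 2.30%, 2.30% and 7.02% of 32851 windows of the same length, and any of the 4 in 13.5%. Those shares are of single windows, whereas members are counted as genes, some with 2 windows. A match was found for 4 members, printed here 5′ to 3′ on the gene's strand with the matches in capitals.
Irf8, chr8:120736162-120736238, GAS at 171 and 153 bases before the start: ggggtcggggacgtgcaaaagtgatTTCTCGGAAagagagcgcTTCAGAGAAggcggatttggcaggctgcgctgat
Irf1, chr11:53769899-53769957, GAS at 90 bases before the start: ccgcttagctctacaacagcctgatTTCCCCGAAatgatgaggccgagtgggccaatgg
Irf2, chr8:46739495-46739554, the ETS-IRF composite at 247, the response element core at 241 and GAS at 224 bases: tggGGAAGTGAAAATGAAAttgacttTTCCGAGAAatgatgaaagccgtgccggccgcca
Irf4, chr13:30749189-30749225, the IRF-ETS composite on the other strand at 19 bases: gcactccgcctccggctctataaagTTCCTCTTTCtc
Irf8 and Irf1, which fell in OE1, and Irf2, which rose there, all hold a GAS match, which is a description of these letters only. No match was found in the windows of Irf3, Irf5, Irf7 and Irf9, which says only that these letters are not in them.

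Among the members switched on by phosphorylation, Irf5 and Irf7 fell in OE1 and Irf3 had more reads there. Irf7 (ENSMUSG00000025498.15, chr7:141262706-141266481, minus strand), which amplifies type I interferon production, had 315 and 293 reads in WT1 and WT2, 19 in OE1 and 300 in OE2. In CPM these were 15.64, 20.64, 1.243 and 14.74, so OE1 was far below the rest. Irf7 fell in OE1, with a difference of -3.00 log2 units (SE 0.308, limma adjusted p = 2.25e-06), to 0.062 times the wildtype normalised reads, a difference that is nominally larger than that of Irf8 but rests on few reads. With no filter its OE1 call was lost (limma adjusted p = 0.0558). In OE2 the difference was -0.25 (95% CI -0.79 to 0.29, limma adjusted p = 0.671), and OE1 lay below OE2 (difference -2.75, limma adjusted p = 2.46e-05).

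Irf5 (ENSMUSG00000029771.12, chr6:29526625-29541871, plus strand), which acts downstream of Toll-like receptors and MyD88, had 1958 and 1166 reads in WT1 and WT2, 572 in OE1 and 1407 in OE2. Its CPM were 97.19, 82.13, 37.43 and 69.12, with both overexpression-labelled libraries under both wildtype ones. Irf5 fell by 1.36 in OE1 (SE 0.172, limma adjusted p = 1.58e-05) and differed in OE2 by -0.35 (95% CI -0.71 to 0.01, limma adjusted p = 0.33). OE1 and OE2 differed by -1.01 (limma adjusted p = 0.000928). With no filter the OE1 call of Irf5 was lost (limma adjusted p = 0.0764). Of the exon length of Irf5, 14.1% also belongs to Tnpo3 on the other strand, and how reads there were assigned is not given, so the Irf5 level is less certain than those of members sharing 0 to 3.4%.

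Irf3 (ENSMUSG00000003184.15, chr7:44997648-45002848, plus strand), the constitutive factor behind early interferon beta, had 340 and 330 reads in WT1 and WT2, 529 in OE1 and 422 in OE2. Its CPM were 16.88, 23.24, 34.62 and 20.73. OE1 was the highest library, and OE2 lay between the wildtype libraries. Irf3 rose by 0.62 in OE1 (SE 0.233, limma adjusted p = 0.0337), a call lost with log2 of normalised reads plus 0.5 (0.66, limma adjusted p = 0.0518) and with no filter. In OE2 the difference was 0.07 (95% CI -0.45 to 0.60), and OE1 differed from OE2 by 0.55 without passing (limma adjusted p = 0.107), though it passed with library totals (0.70) and totals without Rn45s (0.74).

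Irf1 was the one member past the threshold in both overexpression-labelled libraries. Irf1 (ENSMUSG00000018899.16, chr11:53770014-53778374, plus strand), an activator induced by interferon gamma, had 2538 and 1413 reads in WT1 and WT2, 602 in OE1 and 1064 in OE2. In CPM these were 126, 99.53, 39.39 and 52.27. Both overexpression-labelled libraries were below both wildtype ones, and the wildtype pair itself was spread, with WT1 higher. Irf1 fell by 1.61 in OE1 (SE 0.176, limma adjusted p = 4.16e-06) and fell by 1.06 in OE2 (SE 0.176, limma adjusted p = 0.0118), to 0.315 and 0.468 times wildtype normalised reads. Both comparisons use the same wildtype libraries. With no filter the OE1 call was lost (limma adjusted p = 0.0851). The OE2 call was lost with totals without Rn45s (-1.07, limma adjusted p = 0.0605) and with no filter (limma adjusted p = 0.404), and without WT1, the library apart in sex-linked genes, the OE2 difference was -0.88. OE1 and OE2 differed by -0.55 (limma adjusted p = 0.0402), a call that held in 2 of 8 alternatives.

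Irf2 (ENSMUSG00000031627.9, chr8:46739732-46847458, plus strand), the counterpart of IRF1 at shared sites, went the other way. It had 633 and 676 reads in WT1 and WT2, 1651 in OE1 and 1120 in OE2, or 31.42, 47.62, 108 and 55.02 CPM. OE1 was highest, and OE2 stood a little above WT2. Irf2 rose by 1.30 in OE1 (SE 0.212, limma adjusted p = 0.000149), 2.47 times wildtype, and differed in OE2 by 0.50 (95% CI 0.02 to 0.99, limma adjusted p = 0.292). OE1 exceeded OE2 by 0.80 (limma adjusted p = 0.0158). The OE1 call of Irf2 was lost with no filter (limma adjusted p = 0.156). For each read of Irf1 there were 0.249 and 0.478 reads of Irf2 in WT1 and WT2, 2.74 in OE1 and 1.05 in OE2. The ratio was higher in both overexpression-labelled libraries than in either wildtype library, and it was picked after the values were seen, so it carries no test.

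Irf9 (ENSMUSG00000002325.15, chr14:55603571-55610030, plus strand), the DNA-binding part of ISGF3, had 904 and 652 reads in WT1 and WT2, 244 in OE1 and 575 in OE2. Its CPM were 44.87, 45.93, 15.97 and 28.25. The wildtype libraries agreed closely and both overexpression-labelled ones lay below them. Irf9 fell by 1.56 in OE1 (SE 0.194, limma adjusted p = 1.42e-05), and its difference in OE2 was -0.64 (95% CI -1.04 to -0.25, limma adjusted p = 0.114). OE1 lay below OE2 (difference -0.92, limma adjusted p = 0.00433). Stat2, which encodes another part of ISGF3, differed by 0.01 in OE1 (limma adjusted p = 0.965).

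**Figure D2:**
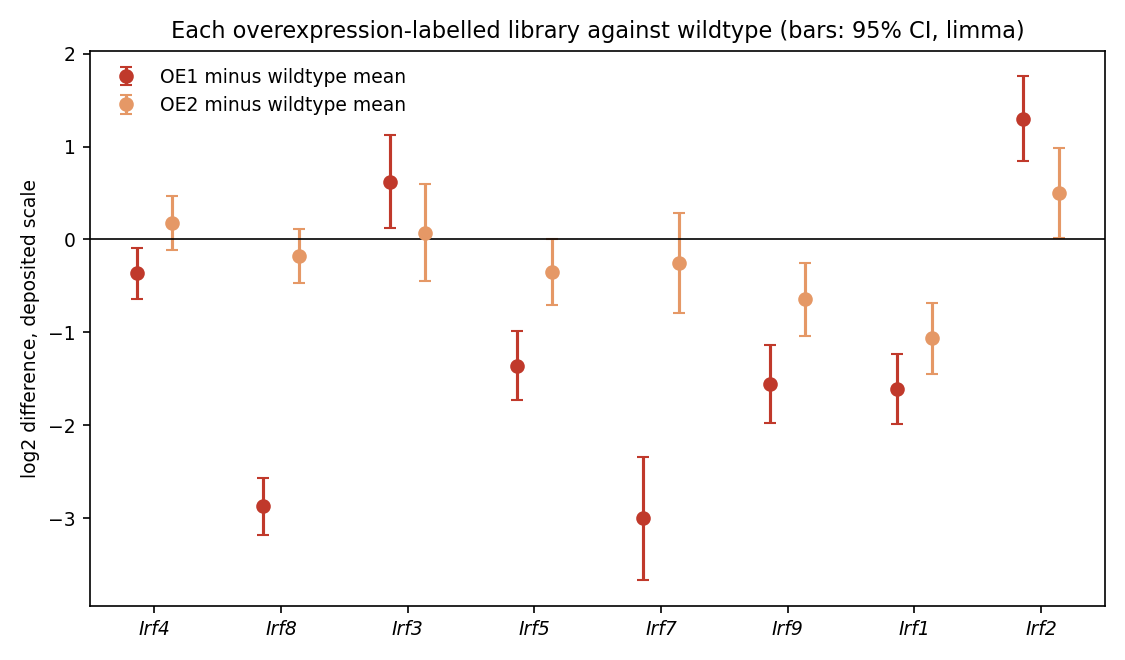
Log2 difference of each member (deposited scale) between OE1 (red) or OE2 (orange) and the mean of the wildtype libraries, with 95% confidence intervals from limma; both share the wildtype libraries. In OE1 the points run from -3.00 (Irf7) to 1.30 (Irf2), and in OE2 from -1.06 (Irf1) to 0.50 (Irf2).

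Over the whole family, 6 of 8 members fell and 2 rose in OE1, with a median difference of -1.46 against -0.15 for all genes tested. Of all tested genes 34.4% fell and 26.8% rose in OE1, so a call by itself was common there. In OE2, 1 of 8 members fell and 0 rose (median -0.22 against 0.01), beside a background of 0.888% of genes lower and 0.769% higher. Between OE1 and OE2, 6 members were lower in OE1 and 1 was higher, where 30.1% and 22.4% of all genes were. All 8 members passed the filter on low reads. With no filter, over 17905 genes, 2 members fell in OE1 (Irf8 and Irf9) and 0 rose, where 6.32% of genes fell and 8.43% rose, 0 changed in OE2, and 1, Irf8, was lower in OE1 than in OE2.

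With both overexpression-labelled libraries set against both wildtype ones, the comparison that the labels give, no member passed. By limma 0 of 12617 genes (0%) did, with 280 at an unadjusted p under 0.05 and 1 member among them, Irf1. Limma-voom on recovered reads also called 0 genes. Irf1 averaged 12.14 ± 0.26 (SD, n = 2) on the deposited log2 scale over WT1 and WT2, and 10.80 ± 0.389 (SD, n = 2) over OE1 and OE2, a difference of -1.34 (limma adjusted p = 0.726). For Irf8 the means were 13.37 ± 0.0851 (SD, n = 2) and 11.84 ± 1.9 (SD, n = 2), so the spread within the second group exceeded the difference of -1.53. Irf4 averaged 15.14 ± 0.174 (SD, n = 2) and 15.04 ± 0.382 (SD, n = 2), a difference of -0.09 whose sign turned without WT2 (0.03), without OE1 (0.18) and with totals without Rn45s (0.0024). The groups did not overlap in 6 members, 5 lower and 1 higher, beside 23.0% of all genes lower and 19.6% higher. The non-overlapping members were Irf1, Irf5, Irf7, Irf8 and Irf9 on the lower side and Irf2 on the higher.

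The make-up of the family's transcripts shifted accordingly in OE1. Summed over the 8 members, CPM per kilobase came to 293.2 and 320.5 in WT1 and WT2, 215.2 in OE1 and 299.2 in OE2. Irf4 made up 57.2% and 63.5% of that sum in wildtype, 73.9% in OE1 and 69.2% in OE2. The share of Irf8 was 13.2% and 11.4% in wildtype, 2.53% in OE1 and 10.9% in OE2. Irf2 took 1.45% and 2.01% in wildtype and 6.79% in OE1, where it was second in order after Irf4. Irf7 was the lowest member in all 4 libraries.

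**Figure D3:**
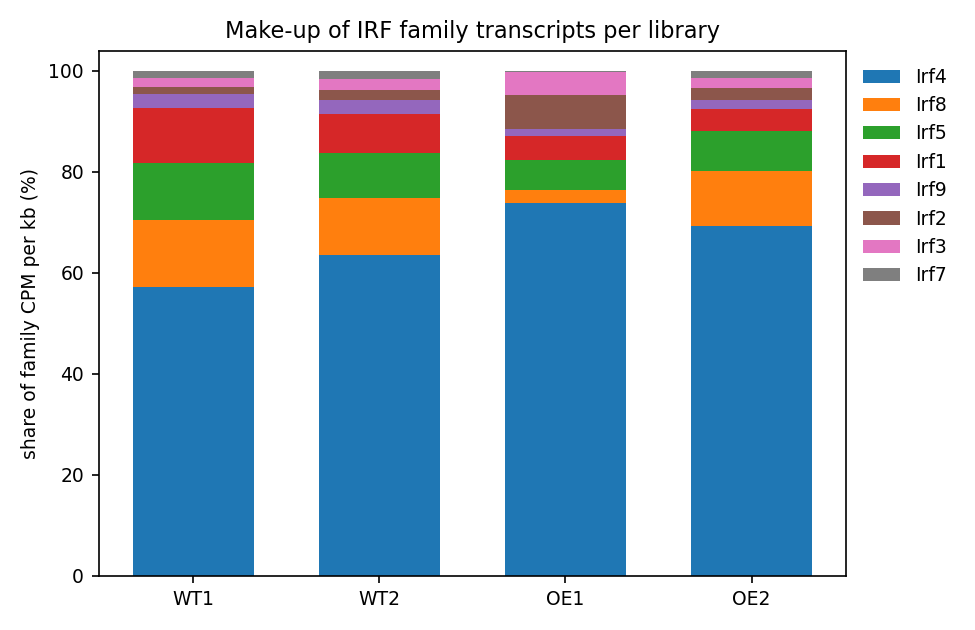
Share of each member in the family's summed CPM per kilobase of exon (stacked bars, percent) in the 4 libraries. Irf4 is the largest part of every bar, and Irf8 shrinks from 13.2% and 11.4% in wildtype to 2.53% in OE1.

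Counts of calls in gene lists around the family are read against the shares over all genes, 26.8% higher and 34.4% lower in OE1, with a median of -0.15, and 0.769% and 0.888% in OE2. Of 11 partner and IRF2-binding genes tested, 3 rose and 5 fell in OE1 (median -0.21), near the shares over all genes, and in OE2 0 rose and 1 fell, Bach2, with a difference of -1.12. Spib, the ETS partner Spi-B, fell by 1.68 in OE1, from 3212 and 1981 reads to 767, and had 3942 reads in OE2. Spi1, which encodes PU.1, fell by 0.46. Irf2bp2, a co-repressor that binds IRF2, fell by 2.29, from 21388 and 15433 reads to 3701. Tcf3, which encodes the E2A proteins, rose by 1.41 and Irf2bp1 by 1.64, the latter on 12 to 105 reads.

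Genes that carry signals to IRF3, IRF5 and IRF7 were mostly lower in OE1. Of 19 tested, 13 fell and 3 rose (median -1.12), beside 34.4% and 26.8% of all genes, and 0 changed in OE2 (median 0.19). Tlr9, the endosomal sensor of unmethylated DNA, fell by 6.10, from 6034 and 4691 reads in wildtype to 54, with 5865 in OE2. Tlr7, its RNA-sensing relative, fell by 4.56, from 597 and 616 reads to 7. Mavs, the mitochondrial adaptor of cytosolic RNA sensors, rose by 2.50 and Myd88, the adaptor of most Toll-like receptors, by 1.00. Of 9 interferon receptor, JAK and SOCS genes, 5 fell and 0 rose in OE1 (median -0.68, all genes -0.15), and Jak2 fell by 2.13 and Ifnar2 fell by 1.03. In OE2 1 of these 9 changed: Ifnar1 fell by 0.84.

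Among genes of the pre-B transition in which IRF4 and IRF8 act, 14 were tested, of which 8 fell and 4 rose in OE1 (median -1.32), beside 34.4% and 26.8% of all genes. Among the 14 tested, the share that rose was thus near that of all genes. That count leaves out 4 listed genes that failed the filter because they were high in OE1 alone. Ikzf3, which encodes Aiolos and is a known IRF4 and IRF8 target, fell by 4.64, from 8010 and 6011 reads to 253, while Ikzf1, which encodes Ikaros, differed by -0.12 (limma adjusted p = 0.377). Blnk, the adaptor behind the pre-B and B cell receptors, fell by 2.99. Il7r, the interleukin 7 receptor chain, rose by 5.51, from 144 and 42 reads to 4707, and Cd79b rose by 1.10. Another 4 genes were too low elsewhere to be tested and had reads almost only in OE1: Igll1 had 36095, Vpreb1 9765, Rag1 4328 and Rag2 993, against 0 to 5 in each other library. In OE2 0 of the 14 rose, and of the falls there was 1: Foxo1 fell by 0.89.

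Later B cell genes tied to the pair were nearly all lower in OE1. Of 11 tested, 10 fell and 0 rose (median -4.64), beside 34.4% and 26.8% of all genes. H2-Aa, a class II chain, fell by 7.49 and Cd74, the invariant chain, fell by 6.98. In OE2 Cr2 rose by 1.02 and Xbp1 fell by 0.77.

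Genes downstream of IRF1, IRF2 and ISGF3 were called in OE1 in both directions, as were all genes (26.8% higher and 34.4% lower). Of 13 MHC class I presentation genes, 5 rose and 6 fell (median -0.15, equal to that of all genes). Those that rose were proteasome subunits and activators, led by Psmb10 (1.41) and Psmb9 (1.24), and those that fell were led by the class I regulator Nlrc5 (-1.09) and the peptide transporter subunit Tap2 (-0.83). Of 29 interferon-stimulated genes tested, 8 rose and 11 fell (median -0.02), near the shares over all genes. Gbp2 rose by 2.83 and Xaf1 by 2.36, and Oasl1 fell by 2.17 and Trim25 fell by 1.92. In OE2 1 of the 29 rose, Herc6, by 1.21, and Trim25 fell by 0.95. In the comparison of both groups 0 members of any of these lists passed by limma.

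**Figure D4:**
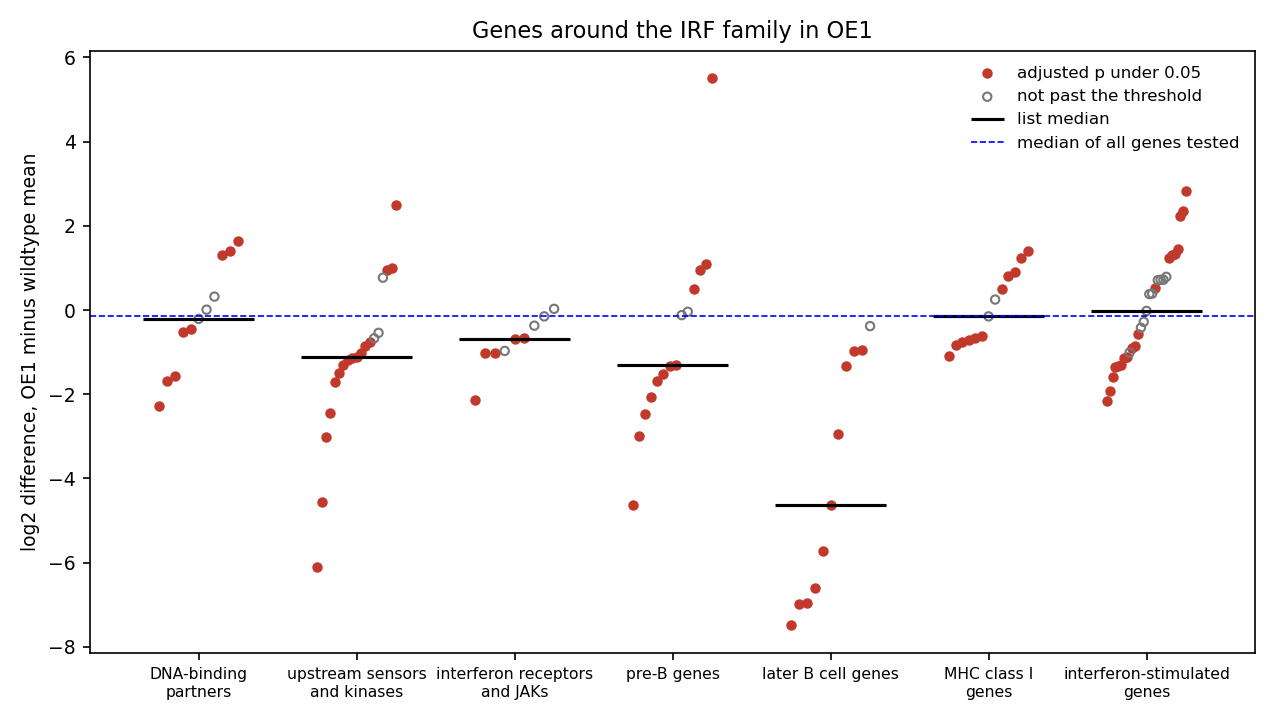
Log2 difference between OE1 and the wildtype mean (deposited scale) for each tested gene of 7 lists around the IRF family; filled points passed an adjusted p of 0.05, bars are list medians and the dashed line is the median of all genes. Later B cell genes lie lowest (median -4.64), and interferon-stimulated genes spread to both sides (median -0.02).

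Markers of other B220-positive or marrow cells moved with some members. Of all genes tested, 34.4% fell and 26.8% rose in OE1 (median -0.15), and 0.888% fell and 0.769% rose in OE2. Beside those shares, all 8 plasmacytoid dendritic cell markers fell in OE1 (median -3.04), and 0 of 8 changed in OE2. These cells carry B220 and express Irf7 and Irf8 strongly. Their summed level was 472.7 and 357.8 CPM in WT1 and WT2, 156.8 in OE1 and 393.7 in OE2, most of it from Tcf4, which B cells also express. Siglech, their defining receptor, had 1129, 321, 4 and 518 reads, Ccr9 had 979, 380, 12 and 356, and Klk1 was at 0 in OE1. Between WT1 and WT2 these markers differed unevenly, with Siglech at 56.04 and 22.61 CPM and Pacsin1 at 12.21 and 12.05 CPM. All 5 conventional dendritic cell markers tested also fell in OE1, led by Cd209a (-2.97) and Itgax (-2.96), and there the list summed to 3.534 CPM against 44.37, 37.76 and 33.99 in WT1, WT2 and OE2. The part of these cells in the Irf7 and Irf8 results was not tested.

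All 10 T and NK cell markers fell in OE1 as well, beside 34.4% of all genes. Of these markers 4 were at 0 reads there, and Gzma (-3.83) and Nkg7 (-3.51) were in the lead. In OE2 2 of the 10 fell, Cd3e (-1.30) and Gzma (-1.99), against 0.888% of all genes. The list summed to 82.84, 84.32, 3.076 and 56.25 CPM in WT1, WT2, OE1 and OE2. Of 9 neutrophil markers tested, 9 rose in OE2, against 0.769% of all genes. In OE1 3 rose, led by S100a8 (1.97) and S100a9 (1.74), against 26.8% of all genes. The sum was 7.148, 109, 141 and 1609 CPM in WT1, WT2, OE1 and OE2. Monocyte markers summed to 31.22 to 44.59 CPM in the first 3 libraries and 206.7 in OE2, of which Lyz2 made up 198.7. Of 5 tested, Lyz2 alone rose in OE2 (2.99), against 0.769% of all genes, and 0 fell. Cd14 (0.78) was higher there without passing, and Ccr2 (-0.99), Adgre1 (-0.57) and Csf1r (-0.18) were lower without passing. In OE1 2 of the 5 fell, Adgre1 (-2.87) and Csf1r (-1.40), beside 34.4% of all genes, and 0 rose. Ccr2 (0.55), Lyz2 (-0.09) and Cd14 (-0.52) did not pass in OE1. Fcgr1 and Cx3cr1 were at 0 in both OE1 and OE2 but were too low to be tested. In WT1 and WT2 Fcgr1 had 1 and 0 reads and Cx3cr1 had 10 and 2. Of 5 plasma cell markers tested, 3 rose in OE1, led by Sdc1 (2.81) and Mzb1 (1.19), beside 26.8% of all genes. The other 2 fell, Prdm1 (-1.33), a target of IRF4, and Xbp1 (-0.95), beside 34.4% of all genes. The sort for B220 would leave out most T cells, neutrophils and monocytes. Whether any of these cells bears on the lower Irf1 in both libraries was not tested.

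Genes whose profile lay nearest to those of Irf4 and Irf8 were found by Euclidean distance over the 4 libraries, among 8875 other genes with a mean of at least 5 CPM. Nearest to Irf4 were Zfp592 (distance 0.0474), Plekhb2 (0.0561), Bbip1 (0.0731), Elmo1 (0.0745) and 4930596I21Rik (0.0752), all with a small deficit in OE1. Nearest to Irf8 were Ryr1 (0.0895), Camk1d (0.104), Fam214b (0.117), Nanos1 (0.13) and 9330179D12Rik (0.131). Camk1d, for instance, had 2061 and 1377 reads in wildtype, 223 in OE1 and 1829 in OE2. With 4 points per profile, likeness of this kind is a description only.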

How the data were processed

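B220-positive marrow B cells gave 4 RNA libraries, from 1 ug of total RNA each per the labels' protocols, grouped by genotype label (1 wildtype label is misspelled, and the column header of OE1 differs from its sample's title in 1 digit). Per the submitters' processing notes, STAR, HTSeq and DESeq2 were run by the authors on build mm10; versions, settings and annotation are not given in the sources used here. The deposited values are log2, with a floor of 4.949 for genes without reads and the form of a variance stabilizing transformation. Inverting it gave whole reads for 100% of values (within 0.01), which are the reads and CPM in the text; ratios use reads divided by size factors of 0.5019, 0.3618, 0.4263 and 0.5079 for WT1, WT2, OE1 and OE2.

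A gene was tested if 2 or more libraries held 10 reads (after scaling to the median library size) and all 4 together held 15, which left 12617 of 24411. Because the files held log2 values, they were tested by limma-trend, two-sided (R 4.3.3 with limma 3.58.1), with no pseudocount and Benjamini-Hochberg adjustment over all genes tested at 0.05. Differences on this scale understate the change of genes with few reads. OE1 and OE2 were each compared with both wildtype libraries, and with each other in a fit of 3 groups. A lone library has no spread of its own and takes that of the wildtype libraries, so these tests compare libraries, not genotypes. The script was tested on simulated data. Alternatives were other filters, scalings, log2 with a pseudocount of 0.5, limma-voom, a robust prior and leaving out each library. Gene models and exon lengths came from GENCODE M21 (GRCm38), matched by symbol. The members and lists were chosen with earlier results of these data known. All 8 members are named; from the other lists, the 2 largest rises and falls past the threshold in OE1; for Irf4 and Irf8, the 5 nearest genes; and further genes chosen after their values were seen. Of the plasma cell markers, 1 symbol was not matched. Values of some genes in the lists are not reported here.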

Additional observations from a re-analysis of the deposited data

How the results depend on the processing

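In the comparison of both groups the number of genes called was 0 in each alternative that kept all 4 libraries, and from 0 to 7721 when 1 library was left out (1 without WT2, 209 without OE1). For OE1 the count was 2642 with no filter, and for OE1 against OE2 it was 2486; other alternatives stayed within 1.5 times. For OE2 it was 0 with no filter, 56 with log2 of normalised reads plus 0.5, 58 with totals without Rn45s, 75 with recomputed size factors and 614 by limma-voom. The cause was not tested. Irf4 over both groups turned sign with totals without Rn45s (0.0024), and its difference ran from -0.36 to 0.18 when 1 library was left out. With no filter, Irf8 and Irf9 alone kept their calls in OE1, and Irf8 alone in OE1 against OE2. The wildtype libraries were almost equal in Irf9 (SD 0.000542, log2 scale), and a lone library takes its spread from them. Whether this near-tie kept the Irf9 call was not tested. Each OE1 and OE2 comparison without 1 wildtype library gives a value and no test; without WT2 Irf4 differed by -0.24 in OE1. Irf7, with 19 reads in OE1, has the largest counting error of the members. No paired analysis was possible because the labels do not pair libraries across the groups.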
